A study of Mus musculus with 4 samples.

Results

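Runs of closely spaced m6A sites were described in bone marrow-derived macrophages (BMDM) of 2 wild-type mice, mapped by m6A-eCLIP. A run is a chain of at least 3 called sites on 1 strand in which each site lies at most 50 bases from the one before. Members were thus chosen by the measured positions of called sites alone. In mouse 1, 11411 of the 45668 sites (24.99%) fell into 3305 runs, and in mouse 2, 12526 of the 47747 sites (26.2%) fell into 3604 runs. They were set beside lone sites, which have no neighbour within 50 bases and numbered 20869 in mouse 1 and 21269 in mouse 2. The other 13388 and 13952 sites stood in pairs and belong to neither class. Each run or lone site was found in the table of 1 mouse, so its position, score and fold in that mouse are descriptions, and comparisons rest on the other mouse, on the annotation or on the sequence.

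Both mice were wild type, and the labels give no strain, age or sex. All cells had received lipopolysaccharide (LPS), the outer-membrane component of bacteria that activates macrophages through Toll-like receptor 4, for 3 h, so nothing here separates LPS from rest. Each mouse gave 1 IP library, made with the m6A antibody, and 1 Input library. The labels do not explain the term NTC in the names of both tables, and whether the cells also received a control treatment is not given. All 8 macrophage markers examined had called sites in both mice, while none of the 4 T cell, 3 B cell or 3 fibroblast markers did. Of the neutrophil markers 3 of 4 were called, all but Ly6g, and of the endothelial ones 1 of 3, Kdr. The part of neutrophil or endothelial RNA in the results below was not tested. The fold of a site, deposited by the authors, divides the read starts of the IP by those of the same mouse's Input. Read numbers are not given, so depth is unknown and a single site has no interval. Intervals on shares are exact 95% binomial intervals that cover counting error only, and sites of 1 run or gene are not independent.

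N6-methyladenosine (m6A) is placed on nascent RNA by the METTL3-METTL14 writer complex, mostly at adenosines within a short consensus, and is read by YTH-domain proteins that act on splicing, translation and decay of the RNA. It is dense in long internal exons and around stop codons, and consensus sites there often lie near each other. Antibodies against m6A also bind N6,2′-O-dimethyladenosine (m6Am), which another enzyme places on an adenosine next to the cap, at the first transcribed base.

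RefSeq sequence around gene starts (GRCm38.p6, the assembly of the mm10 coordinates) covered 18.9% of the run sites in mouse 1 and 19.4% in mouse 2, each window holding 250 bases before and 50 after a gene's start. The 10 highest ranked runs that such windows hold are shown because they let the letters of a run be read; capitals mark adenosines called in both mice.
Mrps18c, chr5:100798738-100798753, plus strand: gaAAtAgaAAggAAga
Tpp1, chr7:105752200-105752222, minus strand: ttAtcAcatgactAcAgAtcAgc
Syf2, chr4:134930974-134930996, plus strand: ggAAgtAgAgAgaaggctgtAat
Ppp2r2d, chr7:138846364-138846393, plus strand: AttgggcgccattttgaaaaggggAaaAAA
Trappc2l, chr8:122611632-122611660, plus strand: tcAcAtgatgtggcgcAcAgcctgccAat
Ssbp4, chr8:70608272-70608300, minus strand: AAcAgcccggggagggcAgcgcggcgagA
Noc4l, chr5:110653354-110653382, minus strand: ActtcggtttccAggaaccgggAgcAgcA
Ncln, chr10:81496343-81496367, minus strand: cgAAggacctcAgcAgccgcccAtg
Atraid, chr5:31048648-31048667, plus strand: tcAagacggtggAAAgcAgt
Rpl7l1, chr17:46782639-46782661, minus strand: gcaagcgcAgtagctgAAgcAcc

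All 10 lie in 5′ UTRs by the authors' annotation. In each of them most adenosines between the first and the last site were called in at least 1 mouse. Both the ranking by number of sites and the limit on length favour this. In the run of Mrps18c, which encodes a mitochondrial ribosomal protein, 7 of the 8 adenosines were called in both mice. In mouse 1 their folds from 5′ to 3′ were 5.01, 85.2, 17.9, 3.64, 3.22, 2.19 and 2.45. In mouse 2 they were 2.74, 21.7, 20.6, 3.34, 2.98, 6.57 and 2.95. The second and the third sites were far above the rest in both animals, and all of the run lay before the annotated start, at −19 to −8. In Tpp1, a lysosomal peptidase, 7 of 8 adenosines were called in mouse 2 and 6 in mouse 1, with folds of 5.46 to 21.1 in mouse 1 and of 4.49 to 14.0 in mouse 2. In Noc4l, a factor of ribosome biogenesis, the first called adenosine is the annotated first base of the gene (folds 11.5 and 11.1), and 4 more follow within 28 bases. Trappc2l, a subunit of a vesicle tethering complex, had its strongest site at the first called adenosine in both mice (folds 39.8 and 44.8).

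As examples, the 4 lone sites of the same kind with the highest folds in both mice are shown with 10 bases on each side, the capital marking the site.
Commd1, chr11:22982249-22982269, minus strand: ggccctccttAgccatggcgg
Ybx1, chr4:119294490-119294510, minus strand: cattctcgctAgttcgatcgg
Tnfaip8l2, chr3:95142344-95142364, minus strand: gtgagctctcAgaaacatcca
Dusp2, chr2:127336149-127336169, plus strand: aagagcccccAgaaccgtcag
Here the single site carried a high fold: 139 and 228 in Commd1, an inhibitor of NF-kB, 174 and 161 in Ybx1, an RNA-binding protein, 86.2 and 127 in Tnfaip8l2, and 129 and 58.6 in Dusp2, an inducible phosphatase of MAP kinases. The sites of Tnfaip8l2 and Dusp2 are the annotated first base of the gene.

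Over all sites in these windows, every covered site was an adenosine, 5009 in mouse 1 and 5221 in mouse 2. Since a run holds 3 sites or more and at most 1 of them can be the first base of a given gene, that base was counted per run. It was called in 139 of the 707 covered runs of mouse 1 (19.7%, 16.8% to 22.8%) and in 153 of 786 in mouse 2 (19.5%, 16.8% to 22.4%), and 17.4% (234 of 1346) and 17.3% of the covered lone sites stood there. The intervals of the runs include the shares of the lone sites, but a run has at least 3 sites that can be that base and a lone site has 1. The 5′-most site of a run was the first base in 8.55% and 8.95% of cases, under the shares of the lone sites. Letters were compared at the 5′-most site of each run, which like a lone site has no called site in the 50 bases before it. The base before it was C in 63.4% of 702 such sites of mouse 1 and in 61.3% of 782 in mouse 2, against 73.9% and 72.2% of lone sites, and C stood before 30.8% of all adenosines in the first 50 bases of genes. An adenosine stood before 1.99% and 1.79% of them and before 1.64% and 1.67% of lone sites, against 24.1% of those adenosines. The sets are not alike: 74.9% and 74.6% of all covered sites lay at or after the annotated start, and all of those adenosines did. At a site on the first base, the letters before it are genomic and lie outside the annotated transcript. These limits also hold for the consensus below.

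The consensus of the writer, DRACH (A, G or T, then A or G, then the methylated A, then C, then A, C or T), was searched on the sense strand. It surrounded 48 of 2116 run sites of mouse 1 (2.27%) and 55 of 2366 of mouse 2 (2.32%), against 4.06% and 4.79% of lone sites and 7.94% of all adenosines in the first 50 bases. At the 5′-most site of each run it was found in 1.88% and 1.82%. The narrower GGAC, which overlaps it, stood at 1.23% of run sites in both mice, against 2.48% and 3.09% of lone sites and 2.02% of those adenosines. Of the 32817 distinct windows, 55.5% hold DRACH and 18.9% hold GGAC in that stretch. Of the adenosines between the outermost sites of the 464 runs that lie whole in a window in mouse 1, 52.3% were called, and 53.1% of those in the 527 runs of mouse 2. Since 3 called adenosines per run are given by the rule, these shares are a description. Beyond those 3, 242 of 1734 adenosines were called in mouse 1 (14.0%) and 263 of 1891 in mouse 2 (13.9%). These letters describe runs near gene starts alone, and coding and 3′ UTR runs were not read here.

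**Figure D1:**
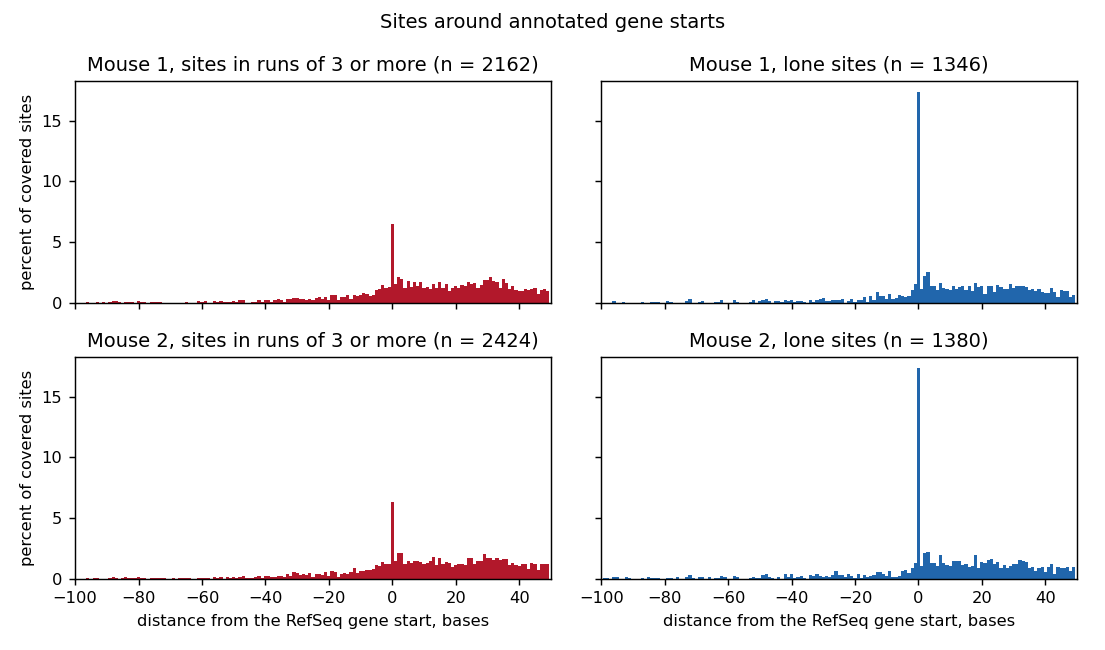
Percent of covered sites (y axis) by distance from the RefSeq gene start in bases (x axis), for run sites (left) and lone sites (right) of each mouse. The first base holds 17.4% and 17.3% of lone sites and 6.48% and 6.35% of run sites. The heights cannot be set against each other, since a run has 3 or more sites. Counted per run the first base was called in 19.7% and 19.5%, and it was the 5′-most site of a run in 8.55% and 8.95%.

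Most runs were short. Runs of 3 sites made up 68.4% of those of mouse 1 and 67.6% of those of mouse 2, and 728 and 793 runs had 4 sites. There were 317 runs of at least 5 sites in mouse 1 (9.59%) and 373 in mouse 2 (10.3%). The longest held 8 sites in mouse 1, and 22 sites in mouse 2, where the next held 10. The median span from the first to the last site was 45 bases in mouse 1 and 46 in mouse 2, and the widest spans were 212 and 248 bases. Neighbours in a run lay a median of 17 bases apart in both mice, and 4.23% and 4.07% of them were adjacent bases. The median fold of a run site in its own mouse was 17.7 and 17.3, against 13.0 for lone sites in both, and the strongest site of a run had a median of 3.26 and 3.30 times the fold of its weakest. At the limit of the rule, 833 distances between neighbours of mouse 1 were 46 to 50 bases, and the sites at both ends had a median fold of 20.7. Another 845 were 51 to 55 bases, with a median of 20.5. The corresponding medians in mouse 2 were 20.2 and 20.2.

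Runs were found in 2507 of 8275 genes with called sites in mouse 1 (30.3%) and 2703 of 8352 in mouse 2 (32.4%). Of these, 1987 and 2131 genes had 1 run, and 138 and 157 had at least 3. In 487 and 499 genes a single run held every called site of the gene. The share of genes with a run was higher in genes with more sites, from 27.6% of genes with 3 or 4 sites to 91.9% of those with at least 20 in mouse 1, and from 29.3% to 94.2% in mouse 2. The share of sites that lay in runs moved little over the same classes, from 25.3% to 29.8% in mouse 1 and from 27.0% to 30.9% in mouse 2.

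Run sites were more often in 5′ UTRs than lone sites, and less often in coding sequence and 3′ UTRs. In mouse 1, 33.2% of run sites and 11.7% of lone sites were annotated to a 5′ UTR, and in mouse 2 32.9% and 11.5%, a difference of 21.4 and 21.5 percentage points. Coding sequence held 32.1% of run sites and 42.8% of lone sites in mouse 1, and 32.2% and 42.4% in mouse 2. 3′ UTRs held 26.3% and 36.2% in mouse 1, and 26.6% and 36.9% in mouse 2. Seen from the positions, 43.6% of all 5′ UTR sites of mouse 1 lay in runs, against 20.6% of coding and 19.9% of 3′ UTR sites, and in mouse 2 46.3%, 21.7% and 20.7%. Each difference had the same sign in both mice, and the exact sign-flip test over the 2 mice cannot give a p below 0.5, its value for all 3. The excess in 5′ UTRs shrank to 4.39 points when the runs were built from sites with a fold of at least 8 alone, and the deficits in coding sequence and 3′ UTRs to −1.07 and −1.24. With a joining distance of 100 bases the excess was 5.45 points and the coding difference turned to 0.57.

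**Figure D2:**
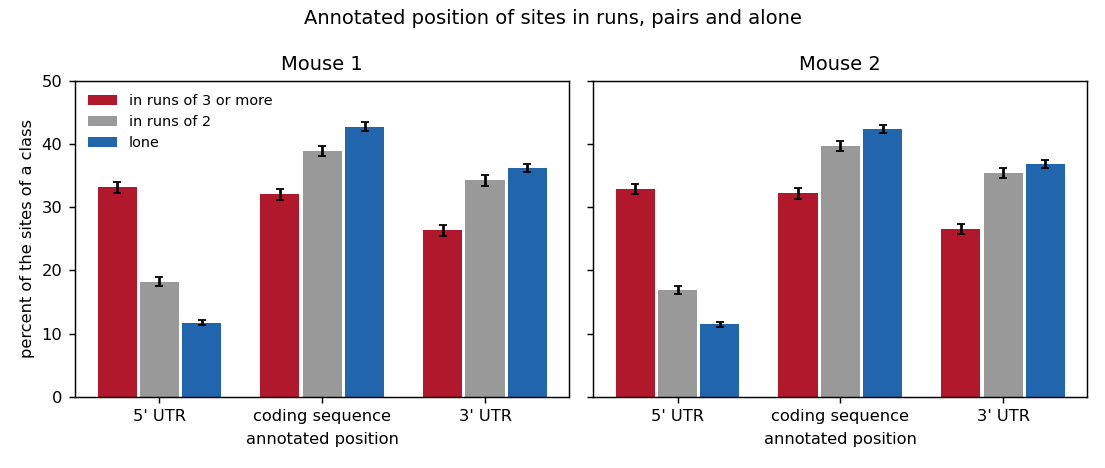
Percent of the sites of a class (y axis) annotated to 5′ UTR, coding sequence and 3′ UTR (x axis), for sites in runs, in pairs and alone in each mouse; error bars are exact 95% binomial intervals. In both mice the run sites are the highest class in the 5′ UTR (33.2% and 32.9%) and the lowest in the coding sequence and the 3′ UTR.

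The runs of the 3 positions were built differently. In 5′ UTRs neighbouring run sites lay a median of 9 bases apart in both mice, against 23 and 22.5 in coding sequence and 24 in 3′ UTRs. Distances of at most 5 bases made up 37.8% and 37.7% of those in 5′ UTRs. The median span of a 5′ UTR run was 32 bases in both mice, against 53 and 54 for coding and 55 for 3′ UTR runs. Runs of at least 5 sites were 15.7% and 17.0% of the 5′ UTR runs, against 7.03% and 6.78% of coding and 5.74% and 6.67% of 3′ UTR runs. The strongest site of a run had a median fold of 20.1 and 20.2 in 5′ UTRs, 42.1 in both mice in coding sequence, and 47.1 and 47.9 in 3′ UTRs. Of the 3 positions, the one with the densest runs thus had the lowest folds. Some runs crossed an annotated border: 491 runs of mouse 1 (14.9%) and 511 of mouse 2 (14.2%) held sites of several positions.

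**Figure D3:**
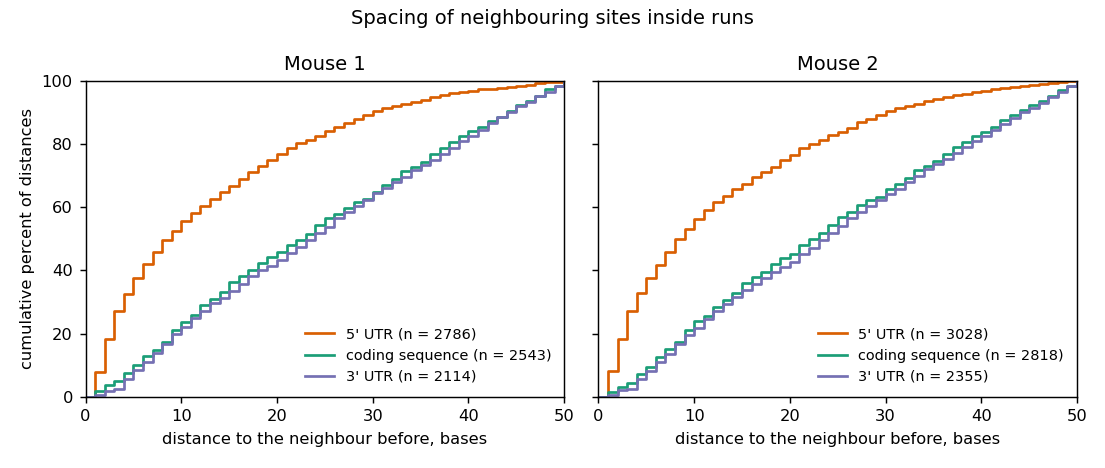
Cumulative percent of the distances (y axis) between a run site and the run site before it, in bases (x axis), by annotated position in each mouse. The 5′ UTR curve rises first, with a median of 9 bases, and the coding and 3′ UTR curves stay close to each other with medians of 22.5 to 24 bases.

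Distances inside coding runs were more often multiples of 3 than those inside 3′ UTR runs. Among distances of at least 6 bases between run sites that both lay in coding sequence, 41.2% were multiples of 3 in mouse 1 (896 of 2177, 39.1% to 43.3%) and 42.3% in mouse 2 (40.3% to 44.3%). In 3′ UTRs the share was 34.3% in both mice (32.1% to 36.5%, and 32.3% to 36.4%). In 5′ UTRs it was 36.0% (33.7% to 38.4%) and 36.5% (34.2% to 38.8%). Pairs of sites, which are not run members, gave 41.9% and 40.6% in coding sequence and 34.6% and 34.5% in 3′ UTRs. In 5′ UTRs, however, pairs gave 39.6% (36.2% to 43.1%) and 38.9% (35.4% to 42.6%), intervals that overlap those of coding sequence. A higher share of multiples of 3 was thus not particular to runs. In runs the intervals of coding sequence lay above those of 5′ UTRs, while in pairs they overlapped. Without Son, described next, the shares of coding runs were 40.9% and 42.0%. This measure and its lower limit of 6 bases were chosen after the spacing had been seen.

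The clearest regular run was in Son, a large nuclear-speckle protein of splicing whose coding sequence contains tandem repeats. On chromosome 16 between 91656546 and 91656726, 7 sites followed each other exactly 30 bases apart, at the same nucleotides in both mice. From 5′ to 3′ the folds in mouse 1 were 49.1, 149, 41.1, 32.1, 47.1, 21.6 and 33.1. In mouse 2 they were 98.2, 131, 82.8, 59.7, 42.4, 36.6 and 27.9. The second site was the strongest in both animals and every site passed a fold of 8. Reads from near-identical repeat units can be placed on more than 1 unit, and the setting used by the authors for such reads is not given, so the split of reads over the 7 sites is uncertain. Of the 1045 runs of at least 4 sites in mouse 1, this was the only one with equal spacing throughout, and in mouse 2 it was 1 of 3 such runs among 1166. The others of mouse 2 were a coding run of B3gnt2 (4 sites 12 bases apart) and one of Calm2 (4 sites 4 bases apart).

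Several coding runs with many sites had high folds. Herpud2, an endoplasmic reticulum membrane protein with a ubiquitin-like domain, had 8 sites on chromosome 9 between 25150870 and 25151075, running from the 5′ UTR into the coding sequence. Its folds from 5′ to 3′ were 88.2, 74.9, 71.7, 96.8, 40.1, 162, 39.4 and 26.8 in mouse 1. In mouse 2 they were 22.4, 86.3, 67.4, 57.3, 26.7, 58.4, 121 and 19.7. All 8 were called in both mice, but the strongest nucleotide differed between them. Extl3, a glycosyltransferase of heparan sulfate synthesis, had 8 coding sites in mouse 1 and 7 in mouse 2, with highest folds of 125 and 109. Incenp, the scaffold of the chromosomal passenger complex, had 7 coding sites in both mice with highest folds of 74.2 and 138. Fcgr1, the high-affinity IgG receptor and a macrophage marker, had a run of 7 on chromosome 3 between 96284222 and 96284366 that passed from the coding sequence into the 3′ UTR. Its folds from 5′ to 3′ were 34.8, 15.8, 37.1, 48.0, 49.6, 43.1 and 75.7 in mouse 1. In mouse 2 they were 36.8, 40.1, 32.8, 54.6, 31.4, 27.6 and 54.9, so the last site was the strongest in both.

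Ube2l3, a ubiquitin-conjugating enzyme, had the run that ranked first of those found in both mice, by the smaller of its site numbers, and its folds were low. Its 10 sites of mouse 2 lay within 18 bases of coding sequence on chromosome 16 between 17154144 and 17154161, and 8 of them were called in mouse 1. The folds were 2.79 to 8.02 in mouse 1 and 2.09 to 6.19 in mouse 2, so 1 site in mouse 1 and none in mouse 2 reached 8. Rpl36-ps2, a processed pseudogene, resembled it, with 6 sites in 10 bases and highest folds of 2.76 and 2.23. Reads of a pseudogene can come from its near-identical parent gene, so this run is uncertain.

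Dense runs in 5′ UTRs held low and middling folds. Nfkbib, an inhibitor that keeps NF-kB in the cytoplasm, had 8 sites in mouse 1 and 7 in mouse 2 between 28766451 and 28766495 on chromosome 7, of which 6 were the same nucleotides. Their highest folds were 18.7 and 15.4. Commd4 had 7 and 8 sites with highest folds of 14.4 and 16.4. Gpbp1, a transcriptional regulator, had 7 sites in both mice with highest folds of 45.1 and 71.3, and most sites of its run were annotated to the 5′ UTR in mouse 1 and to an intron in mouse 2. Among 3′ UTR runs the first by rank were Sbf2 (6 and 8 sites, highest folds 61.2 and 74.1), Tmem229b (6 and 7 sites, 84.2 and 106) and Icosl, the ligand of the costimulatory receptor ICOS (6 sites in both, 158 and 186). The first intronic runs were those of B3gnt2, Myd88 and Igtp, and each of these also held sites annotated to a 5′ UTR or coding sequence. Among noncoding exons the other leading runs were in Xist, the RNA that coats the inactive X chromosome (5 sites, highest folds 131 and 110), and Tomm6, with 5 sites and highest folds of 23.7 and 23.4.

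**Figure D4:**
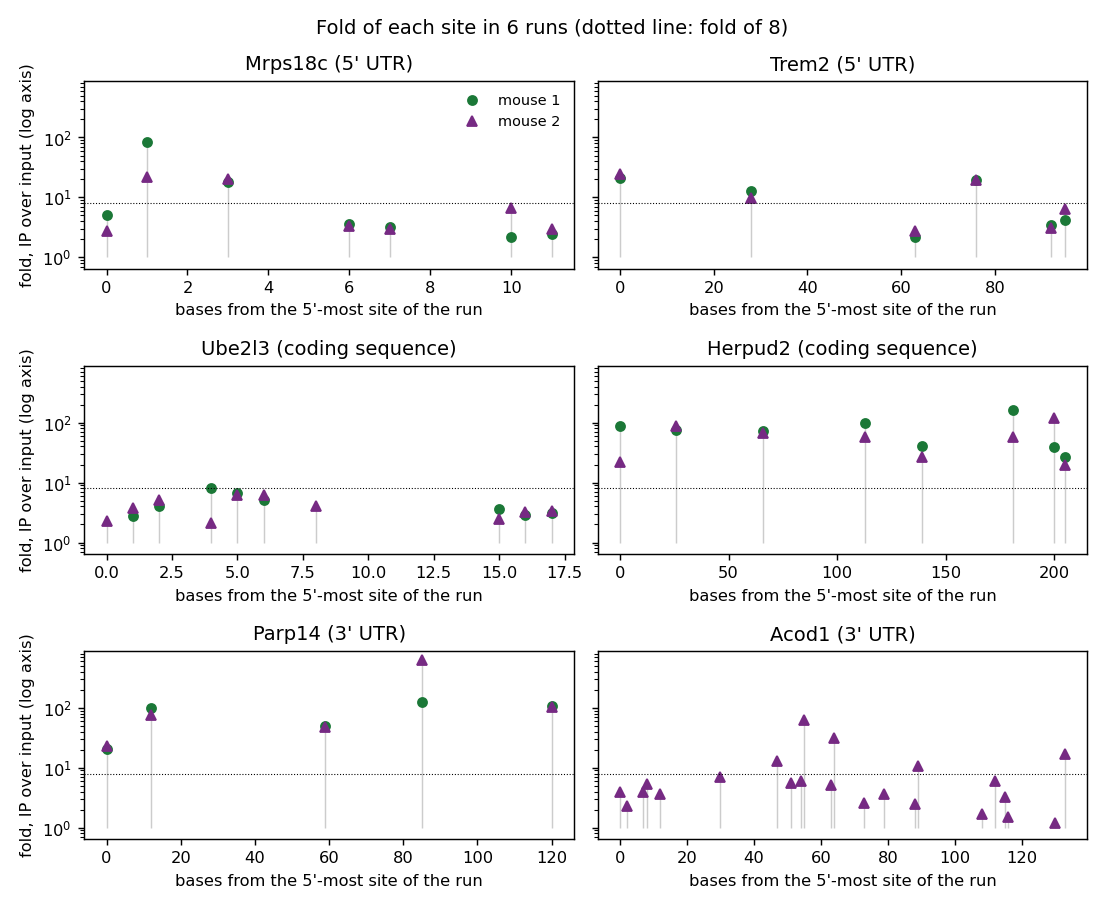
Fold of IP over Input (log y axis, dotted line at 8) of each site against its distance in bases from the 5′-most site of the run (x axis), for the runs of Mrps18c, Trem2, Ube2l3, Herpud2, Parp14 and Acod1, with points for each mouse. The sites of Herpud2 and Parp14 stay above 8 in both mice, those of Ube2l3 lie at or below 8.02, and Acod1 has points in mouse 2 alone.

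Whether runs recurred was read in the mouse that had not defined them. Run sites found in mouse 1 were to 87.9% (87.3% to 88.5%) also called at the same nucleotide in mouse 2, and those found in mouse 2 to 84.1% (83.4% to 84.7%) in mouse 1. The background over all called sites was 83.4% and 79.8%. Sites in pairs reached 85.6% and 82.4% and lone sites 79.5% and 75.5%, so a lead over lone sites was not particular to runs. Run sites were ahead of lone sites by 8.36 and 8.63 points, a mean of 8.49 ± 0.185 (SD, n = 2 mice). The exact sign-flip test gave p = 0.5, the smallest that 2 mice allow. Run sites also had higher scores in their own mouse (medians 38.4 and 39.1 against 26.3 and 26.8). Within 5 equal classes of sites by that score, the difference fell to a mean of 0.24 points, 0.66 in mouse 1 and −0.18 in mouse 2.

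Whole runs recurred too. Of the runs of mouse 1, 2632 of 3305 (79.6%, 78.2% to 81.0%) shared at least 1 called nucleotide with a run of mouse 2, and of those of mouse 2, 2630 of 3604 (73.0%, 71.5% to 74.4%) did so with a run of mouse 1. For runs of 3 sites the shares were 74.0% and 66.4%, and for runs of at least 5 they were 96.2% and 93.8%. A longer run has more sites that can be shared, so this rise is a description. Exactly the same set of nucleotides was called in 1876 runs, 56.8% of those of mouse 1 and 52.1% of those of mouse 2. Where a run site was called in the other mouse, it stood in a run there in 87.8% and 83.6% of cases, in a pair in 10.1% and 13.0%, and alone in 2.16% and 3.45%. In the 2630 runs matched between the mice, the strongest site was the same nucleotide in 1386 (52.7%). That share was 56.6% of 883 matched runs in 5′ UTRs, 50.2% of 836 in coding sequence and 50.1% of 730 in 3′ UTRs. The strongest site was the 5′-most of its run in 33.0% and 32.0% of matched runs and the 3′-most in 26.2% and 26.4%. In 5′ UTRs these shares were 35.0% and 36.7% against 21.4% and 21.5%.

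Antibody enrichment in the other mouse depended on where the run lay. A site was called enriched at a fold of at least 8, a limit passed by 84.1% of the shared sites in mouse 2 and 84.8% in mouse 1 (81.7% and 79.1% of all called sites of mouse 1 and mouse 2). Run sites of mouse 1 passed it in mouse 2 in 81.5% of cases and those of mouse 2 in mouse 1 in 81.7%, both under the background, while lone sites reached 84.2% and 85.5%. In 5′ UTRs the run sites were lower than the lone ones: 61.5% against 73.3% for runs of mouse 1, and 61.9% against 76.3% for runs of mouse 2. In coding sequence they were higher, 92.7% against 86.6% and 92.6% against 88.6%. In 3′ UTRs they were higher as well, 95.2% against 87.1% and 95.2% against 87.3%. The exact sign-flip p was 0.5 for each. The total of −2.64 and −3.86 points thus joins positions whose differences had opposite signs. It also depended on the settings. Its mean was −14.3 points with a joining distance of 25 bases and −8.27 with runs of at least 4 sites. Within equal classes of score it was −8.84. It turned to 3.52 points with a joining distance of 100 bases and to 10.6 with a fold limit of 16. The part of position in these changes was not tested.

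The folds themselves gave the same split. The median fold in the other mouse was 20.2 and 19.4 for run sites against 15.4 and 15.0 for lone sites, a log2 difference of 0.39 and 0.37 (exact sign-flip p = 0.5). In 5′ UTRs run sites were lower, 10.1 and 10.3 against 12.5 and 12.6, which is −0.31 and −0.30 on the log2 scale. In coding sequence they were higher, 27.9 and 27.1 against 16.4 and 16.05. In 3′ UTRs they were also higher, 30.9 and 28.6 against 16.7 and 16.05. The log2 differences were 0.77 and 0.75 in coding sequence, and 0.89 and 0.83 in 3′ UTRs. Over all positions the difference was −0.22 when runs were joined at 25 bases and −0.061 within the 5 classes of score.

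**Figure D5:**
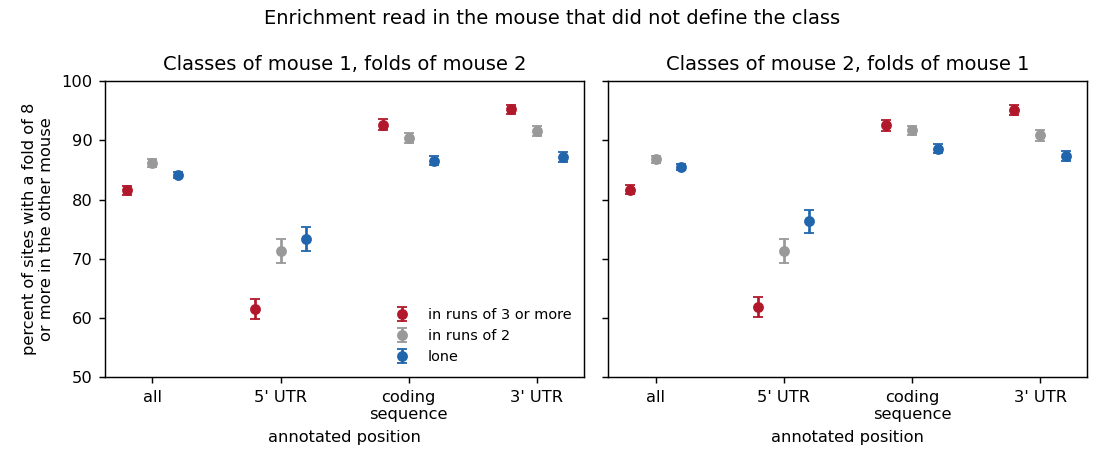
Percent of sites with a fold of at least 8 in the other mouse (y axis, from 50 to 100) for sites in runs, in pairs and alone, over all positions and by annotated position (x axis); points with exact 95% binomial intervals, members of mouse 1 on the left and of mouse 2 on the right. Run sites are lowest in the 5′ UTR (61.5% and 61.9%) and highest in the 3′ UTR (95.2% in both).

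Genes of the macrophage response were then counted by list. A matched run is a run of mouse 1 and a run of mouse 2 that are each other's best partner by shared nucleotides, and 2028 of the 7827 genes called in both mice had one (25.9%), with a median of 4 sites per gene. As shown above, genes with more sites more often had a run, so the median number of sites is given beside each count. Of all genes with 5 to 9 sites, 45.7% had a run in mouse 1 and 48.0% in mouse 2. Of those with 10 to 19 sites, 72.0% and 73.4% had one. Matched runs were not counted by number of sites. Among interferon-stimulated genes 33 of 53 had a matched run (62.3%, median 11 and 13 sites). A run was found in 73.6% of them in mouse 1 and 67.9% in mouse 2, close to all genes with 10 to 19 sites. Rnf213, a giant ubiquitin ligase, had 8 matched runs with 27 of its 73 sites in runs in each mouse, and Helz2, a helicase coactivator, had 7 with 26 of 76 sites in mouse 1 and 38 of 81 in mouse 2. Irgm1, a GTPase that acts on vacuoles of intracellular bacteria, had 5 matched runs, with 18 of 25 and 21 of 26 sites in runs. Parp14, an ADP-ribosyltransferase, had a 3′ UTR run of 5 sites on chromosome 16 between 35834148 and 35834268. Its folds from 5′ to 3′ were 20.6, 98.6, 50.4, 127 and 108 in mouse 1, and 23.3, 76.9, 46.9, 630 and 102 in mouse 2. The fourth site was the strongest in both mice. Dhx58, a regulator of RIG-I-like sensing (7 and 6 sites, highest folds 44.1 and 44.3), and Zbp1, a sensor of Z-form nucleic acid (6 sites in both, 27.9 and 38.5), had 5′ UTR runs.

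Toll-like receptor genes had matched runs in 17 of 29 (58.6%, median 12 and 14 sites). A run was found in 72.4% of them in mouse 1 and 58.6% in mouse 2. Of all genes with 10 to 19 sites, 72.0% and 73.4% had one. The receptors differed among themselves. Tlr2, which senses lipoproteins, had 16 of 32 and 14 of 33 sites in runs, Cd180 had 13 of 32 in both mice and Tlr3, the sensor of double-stranded RNA, had 12 of 26 and 12 of 28, each with 4 matched runs. Tlr6, the partner of Tlr2, had 15 and 18 sites and none in a run. Cd14, the coreceptor of LPS, had 13 of 23 and 16 of 24 sites in runs, the longest a 5′ UTR run of 7 with highest folds of 25.1 and 12.6. The adaptor Myd88 had a run of 4 sites in mouse 1 and 7 in mouse 2 with highest folds of 6.02 and 9.15. Unc93b1, which carries the endosomal receptors, had 5 coding sites with highest folds of 35.6 and 28.7.

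Of NF-kB genes and their feedback inhibitors, 15 of 34 had a matched run (44.1%, median 8.5 sites). After Nfkbib, the leading members were the subunit Nfkb1 (4 and 5 sites at the 5′ end, highest folds 36.1 and 24.6) and the MAP kinase phosphatase Dusp16 (4 coding sites, 169 and 187). Cytokines and chemokines had 7 of 27 (25.9%, median 3 sites), which is the share of all genes. They included Il1rn, the antagonist of the interleukin 1 receptor, with 7 of 10 and 8 of 11 sites in runs. The growth factor Csf1 had a coding run of 4 with highest folds of 134 and 168, and Pdgfb a 3′ UTR run of 3 with 197 and 185. Tnf had 3 of its 10 sites in a run in each mouse, and Il6 had 2 sites, too few for a run. Inducible transcription factors had 13 of 32 (40.6%, median 9 and 9.5 sites), led by Klf6 (5 and 6 coding sites, highest folds 209 and 453), Bhlhe40 (5 coding sites, 103 and 123) and Ier3 (5 sites in the 3′ UTR, 121 and 103).

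Macrophage identity genes had matched runs in 16 of 34 (47.1%, median 7 and 6 sites). Besides Fcgr1, the lipid receptor Trem2 and its signalling partner Tyrobp each had a run of 6 sites in both mice. The run of Trem2 lay in the 5′ UTR, on chromosome 17 between 48346412 and 48346507, with folds from 5′ to 3′ of 20.7, 12.7, 2.21, 19.5, 3.49 and 4.21 in mouse 1. In mouse 2 they were 24.8, 9.63, 2.73, 19.7, 3.15 and 6.34, and the first and the fourth site were the strongest in both. The run of Tyrobp lay in coding sequence with highest folds of 20.8 and 17.9. Lrrc25, a leucine-rich repeat receptor of myeloid cells, had 7 matched runs, with 25 of 27 sites of mouse 1 and 24 of 27 of mouse 2 in runs. The m6A machinery had 5 of 22 (22.7%, median 5.5 and 4 sites). In this list the reader Ythdf1 had a coding run of 6 in both mice with highest folds of 40.8 and 73.7. Wtap, a scaffold of the writer complex, had coding runs of 3 and 4 sites with 28.1 and 31.8, and the initiation factor subunit Eif3a runs of 3 and 4 with 39.4 and 59.2. Chromatin regulators had 16 of 45 (35.6%, median 10 and 12 sites), with Nsd3 and Kat6a leading at 4 sites or more. A run was found in 42.2% of them in mouse 1 and 44.4% in mouse 2, under the 72.0% and 73.4% of all genes with 10 to 19 sites. Only 17.7% and 20.7% of the list's sites lay in runs, against 25.1% and 26.4% over all genes. Genes with very long coding exons had 8 of 17 (47.1%, median 19 and 22 sites). A run was found in 52.9% of them in mouse 1 and 70.6% in mouse 2. These shares, too, lay under those of all genes with 10 to 19 sites. Ahnak had 7 matched runs, and Plec had a 3′ UTR run of 5 with highest folds of 73.8 and 62.8. Of the nuclear noncoding RNAs all 3 that were called had matched runs, with 3 sites in the leading runs of Malat1 and Neat1 beside Xist.

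Respiratory chain genes had few sites, but most of these lay in runs. They had matched runs in 18 of 37 (48.6%) with a median of 3 sites, and 71 of their 101 sites of mouse 1 (70.3%) and 71 of 107 of mouse 2 (66.4%) lay in runs. Ndufs8 had 5 and 6 sites in its 5′ UTR run with highest folds of 29.6 and 55.8, Ndufb7 had 5 with 48.1 and 31.6, and Ndufa1 had 6 and 5 with 7.84 and 8.99. All 3 are subunits of complex I. Of the 12 cytosolic ribosomal protein genes called in both mice, 3 had a matched run (25%, median 2 and 2.5 sites), near the 25.9% of all genes. The list had only 28 and 33 sites, of which 67.9% and 51.5% lay in runs, against 25.1% and 26.4% over all genes. The matched runs were those of Rps27l, Rpl12 and Rpl11, each in a 5′ UTR with 4 to 6 sites. Their highest folds were 65.5 and 68.2, 30.1 and 43.3, and 17.0 and 33.7. Ribosomal protein genes have many pseudogene copies, so their reads may be split among them.

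Few runs belonged to 1 mouse alone, as the rule favours. Of all called sites, 83.4% of mouse 1 and 79.8% of mouse 2 were called in the other mouse, and a run has at least 3 sites that can be shared. No called site of the other mouse lay inside 31 runs of mouse 1 (0.938%) and 61 of mouse 2 (1.69%). In mouse 1 the longest were coding runs of Hsp90aa1, a cytosolic chaperone (6 sites, folds 1.23 to 3.51), and Mndal (5 sites, highest fold 2.19), and a 5′ UTR run of Vdac3, a mitochondrial channel (4 sites, highest fold 28.1). In mouse 2 the longest in named genes besides Acod1 were a 5′ UTR run of Ndufc1 (6 sites, highest fold 10.3) and a coding run of Anxa5 (5 sites, highest fold 0.835). The median fold of each of these runs was under 8.

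Acod1, the LPS-induced enzyme that makes itaconate, held the longest run of all. In mouse 2, 22 sites lay between 103055713 and 103055846 on chromosome 14, in the 3′ UTR. Their folds ran from 1.21 to 62.2 with a median of 4.53, and 5 of the 22 reached 8. Their scores were 86.2 to 117, so that even the lowest was above 91.0% of all sites of mouse 2. The gene had 42 sites in mouse 2, 28 of them in runs, while the table of mouse 1 used here holds no site of Acod1. The next genes present in 1 table alone had at most 6 sites. Whether Acod1 RNA differed between the animals was not tested, since the tables give sites and no transcript levels. Without Acod1 the share of sites in runs was 25.6% and the difference between run and lone sites in sharing was 8.58 points.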

How the data were processed

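The authors deposited 1 table per mouse, with a row for every called base that gives its score, fold and annotation; IP and Input libraries were not pooled across mice. Scores were deposited by the authors for every site, and how they were defined is not given in the sources used here. Per the file headers, folds are ratios of read starts, IP over Input; in each table it carries a constant (1.003 and 0.963), so that a ratio of 8 is 8.02 or 7.70. Per the submitters' processing notes, cutadapt 2.7, STAR 2.6.0c and UMI-tools 0.5.1 were used, with build mm10. The site caller is likewise not given, and without read numbers the depth is unknown.

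Rows were sorted by chromosome, strand and end, neighbours at most 50 bases apart were joined, and runs of at least 3 sites were kept. Exact (Clopper-Pearson) 95% intervals and exact two-sided sign-flip permutation tests over the 2 mice were used; the steps were tested on simulated data. The members and the 12 gene lists were chosen with earlier results of these data known. Runs were named by rank: the smaller site number of the 2 mice, then the sum, then the strongest folds, taking 1 run per gene without predicted genes. Named were the first 10, the first 3 per position and per list, the 5 genes with the most matched runs and the 3 longest runs per mouse without a site of the other. A gene that these rules pick is not reported here. List members named for counts of sites (Tnf, Il6, Irgm1, Tlr2, Tlr3, Tlr6 and Cd180), regular spacing and the count of all Acod1 sites were picked with their values in view. The sequences are the 10 highest ranked runs of at most 30 bases and the 4 strongest lone 5′ UTR sites. Both lie within RefSeq promoter windows of the same gene and outside chromosome 18. Counts per run in the windows were added after seeing the data. Of 1988 genes with a matched run, 1619 have such a window. Alternatives covered joining distance, run size, fold limit, score (5 equal classes), position and each mouse. Python 3.11.15 was used with pandas 2.3.3, NumPy 2.4.6, SciPy 1.17.1 and Matplotlib 3.10.9.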

Additional observations from a re-analysis of the deposited data

How the results depend on the processing

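Depth is unknown, only 2 mice were used, and a p of 0.5 says nothing of stability. No paired analysis was possible because the tables give IP and Input only as their ratio within a mouse, with no value per library for a block; the differences between run and lone sites are already taken within each mouse. Values are means over the mice, except where 1 mouse is left out. Of 78 alternative values, 29 moved by less than the SD between the mice, 41 moved by more and 8 turned sign. The 29 include every value with 1 mouse left out. With 2 mice such a value cannot move by more than that SD, so it says nothing of stability. The causes of the changes were not tested.

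With a joining distance of 25 bases, the share of sites in runs was 12.7%, the sharing difference 5.49 points, the enriched difference −14.3 points and the log2 fold difference −0.22. The position differences were −20.7 (3′ UTR), −19.8 (coding) and 38.3 (5′ UTR), and the median distance 9 bases. With 100 bases they were 45.3%, 12.3, 3.52, 0.59, −1.95, 0.57, 5.45 and 30 bases. With runs of at least 4 sites the share was 10.5%, runs met 70.1%, the enriched difference −8.27, the log2 difference 0.26, the positions −15.3, −15.7 and 30.9 and the distance 14 bases. From sites with a fold of at least 8 alone the share was 20.3%, the sharing difference 12.0, the log2 difference 0.63, the positions −1.24, −1.07 and 4.39 and the distance 21 bases, and the enriched difference has no value, since those sites are chosen by fold. Counting sites within 5 bases as shared gave 11.4 points and 0.34. Within 5 equal classes of score the sharing, enriched and log2 differences were 0.24, −8.84 and −0.061. In 3′ UTRs alone the enriched and log2 differences were 7.97 and 0.86. At a fold of 16 the enriched difference was 10.6. Counted per run, the positions were −8.62, −10.1 and 20.8, and in genes with at least 5 sites −6.71, −11.6 and 19.03. Added after seeing the data, 5′ UTRs alone gave −13.2 and −0.30, and coding sequence 5.04 and 0.76.

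With 1 mouse left out, the ranges were 24.99% to 26.2% (share), 8.36 to 8.63 (sharing), 73.0% to 79.6% (runs met), −3.86 to −2.64 (enriched), 0.37 to 0.39 (log2), −10.3 to −9.83 (3′ UTR), −10.7 to −10.2 (coding), 21.4 to 21.5 (5′ UTR) and 17 bases.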
